A study of Homo sapiens with 7 samples.

Results

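The genes that bring iron into the cell, store it and let it out were followed in RNA of K562, a human leukaemia line established from chronic myeloid leukaemia in blast crisis. The set was a list of 10 genes matched by gene ID or symbol: TFRC, TFR2, STEAP3 and SLC11A2 for uptake, FTH1, FTL and NCOA4 for storage and release, SLC40A1 for export, HMOX1 for recycling of heme iron, and IREB2 for control. All 10 were among the 25702 gene IDs counted, and 9 of the 10 were among the 10452 genes with enough reads to test (a CPM, the count per 1000000 counted reads, of 10 or more in 2 or more libraries). HMOX1 did not reach that level.

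The data came from 7 lines, each sequenced as 1 library. The control group (n = 2) held the drug naive line and the line kept in DMSO, the vehicle, in parallel. The other lines were dasatinib resistant (DasR) intermediates taken along a single rise in dose, dasatinib being an inhibitor of the ABL1 and SRC family kinases. Lines at 10, 15 and 25 nM were the early stage group (n = 3) and those at 50 and 200 nM the late stage group (n = 2), a grouping that the study made from these same libraries. Every line descended from K562, so the p-values below measure the spread between lines at different doses of 1 lineage and not between repeated selections. Each library held between 20059656 and 27844799 counted reads. Both stages were compared with the same 2 control lines, so the early and late results share them. In bulk RNA, fewer cells with a transcript and less of it per cell cannot be told apart.

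Most cells take up iron bound to transferrin. The transferrin receptor carries it into the endosome, where a reductase frees ferrous iron and a divalent metal transporter passes it to the cytosol. Iron that is not used for heme or for iron-sulfur clusters is held in ferritin, a shell of heavy and light chains that is broken down with the help of NCOA4, or leaves the cell through ferroportin. When iron is scarce, iron regulatory proteins bind hairpins called iron-responsive elements, which protect the transferrin receptor mRNA and hold back translation of ferritin and ferroportin mRNAs. Erythroid cells, which K562 resembles, take up much of their iron for heme.

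Sequences that match this hairpin are shown because iron regulatory proteins act on mRNA through it. The search took a C, any 5 bases, the loop CAGTGN, and 5 bases that pair with the first 5, with G and T allowed to pair. It read the untranslated regions of the MANE Select transcript of each gene on the transcribed strand (GENCODE v44 lifted to GRCh37, the same build as hg19). Capitals mark the loop letters of the match, and the other bases are in lower case.
FTH1 5′ UTR, chr11:61735046-61735073, minus strand: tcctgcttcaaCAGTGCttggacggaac
FTL 5′ UTR, chr19:49468593-49468620, plus strand: tcttgcttcaaCAGTGTttggacggaac
SLC40A1 5′ UTR, chr2:190445387-190445414, minus strand: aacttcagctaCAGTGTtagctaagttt
TFRC 3′ UTR, chr3:195777850-195777877, minus strand: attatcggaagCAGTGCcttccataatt
TFRC 3′ UTR, chr3:195777446-195777473, minus strand: attatcgggagCAGTGTcttccataatg
TFRC 3′ UTR, chr3:195777381-195777408, minus strand: tgtatcggagaCAGTGAtctccatatgt
TFRC 3′ UTR, chr3:195777334-195777361, minus strand: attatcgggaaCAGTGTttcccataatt

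FTH1, FTL and SLC40A1 each had 1 match in the 5′ UTR, and TFRC had 4 in the 3′ UTR, listed in their order along the mRNA. The other members had no match to these letters in the transcripts read. Of 18922 genes searched, 18 (0.0951%) had a match in the 5′ UTR and 121 (0.639%) in the 3′ UTR. A match is a description of letters and not a measured site. The pattern required each of its stem bases to pair, so a hairpin with a mismatch or an extra base there would be missed. The absence of a match therefore does not show that a gene lacks an iron-responsive element.

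Levels differed widely between the members. Read counts divided by total counts and by gene length (CPM per kilobase) put both ferritin chains at the top of the transcriptome. In the control lines FTL had 2721 ± 386 CPM per kilobase (SD, n = 2) and FTH1 1553 ± 474, ranks 4 and 13 of the 10452 tested genes. NCOA4 followed with 127 ± 28.7 and TFRC with 102 ± 14.6 CPM per kilobase, which overlapped in range between the control lines. TFR2 had 66.6 ± 5.88, IREB2 27.9 ± 1.78, SLC40A1 19.1 ± 1.93 and SLC11A2 12.8 ± 0.867 CPM per kilobase, and these levels did not overlap in the controls. STEAP3 was the lowest of the 9, at 6.20 ± 1.88 CPM per kilobase. In the early stage lines TFRC had 225 ± 8.30 CPM per kilobase and stood above NCOA4, which had 156 ± 21.6. STEAP3 reached 14.8 ± 0.122 in the early stage lines, above SLC11A2 at 13.1 ± 0.786.

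**Figure D1:**
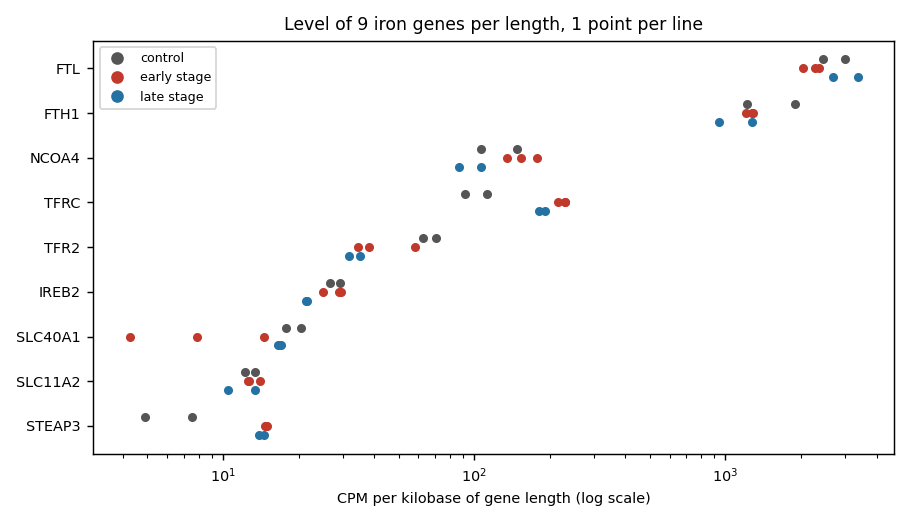
CPM per kilobase of gene length (log axis) of the 9 tested iron genes, 1 point per K562 line, with control lines grey, early stage red and late stage blue. FTL and FTH1 lie above the other members in all 7 lines, TFRC and STEAP3 points of the DasR lines lie to the right of the controls, and SLC40A1 spreads most within the early stage.

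TFRC, on chromosome 3 (195739382-195809024, minus strand; hg19, as for all positions), encodes transferrin receptor 1, the main entry route for transferrin-bound iron. It was measured at 594 CPM in the drug naive line and 485 CPM in the DMSO line. The 10, 15 and 25 nM DasR lines had 1220.5, 1143 and 1218 CPM, and the 50 and 200 nM DasR lines 1017.5 and 960.5 CPM. All 5 DasR lines were above both controls, and both late stage lines were below all 3 early stage lines. Tested in edgeR (quasi-likelihood, p-values adjusted over the 10452 genes by Benjamini-Hochberg), TFRC rose 2.19-fold in the early stage lines (log2 fold change 1.13, SE 0.12, adjusted p = 0.000677). It rose 1.80-fold in the late stage lines (log2 fold change 0.85, SE 0.13, adjusted p = 0.00373). The late stage result moved to the other side of the 0.005 threshold when any 1 of the 7 libraries was left out (adjusted p between 0.00618 and 0.0153), while the early stage result passed each time. Where such a fit leaves a group with 1 line, that line is assumed to vary like those of the other groups. Between the stages the difference was -0.28 on the log2 scale (95% interval -0.55 to -0.01, adjusted p = 0.144).

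STEAP3, on chromosome 2 (119981407-120023228, plus strand), encodes the endosomal ferrireductase that works with the transferrin receptor in erythroid cells. Its 21.2 CPM in the drug naive line and 32.8 CPM in the DMSO line compared with 64.9, 64.3 and 63.8 CPM at 10, 15 and 25 nM. At 50 and 200 nM it had 60.5 and 63.6 CPM. The DasR lines were all above the controls and lay within 5 CPM of each other, a narrower spread than that between the 2 controls. STEAP3 rose by 1.24 on the log2 scale in the early stage (SE 0.16, adjusted p = 0.00132) and by 1.18 in the late stage (SE 0.17, adjusted p = 0.00341). Without the 25 nM line the early stage adjusted p was 0.00633, and the late stage call was lost in 6 of the 7 fits that left out 1 library (adjusted p up to 0.0138). The antisense gene STEAP3-AS1 shares 500 of the 4259 exon bases of STEAP3, and the strand setting of the counting was not given in the sources used here.

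TFR2, on chromosome 7 (100218039-100240402, minus strand), encodes the second transferrin receptor, which senses transferrin iron in hepatocytes and erythroid precursors. It had 180 CPM in the drug naive line and 204 CPM in the DMSO line. The early stage lines had 168, 110.5 and 99.5 CPM from the lowest dose to the highest, and the late stage lines 101 and 91.9 CPM. Every DasR line was below both controls, with the 10 nM line nearest to them. Neither stage passed the threshold in edgeR: the log2 fold change was -0.62 (SE 0.21, adjusted p = 0.0473) in the early stage against -1.01 (SE 0.24, adjusted p = 0.0176) in the late stage. By DESeq2 the late stage passed (adjusted p = 8.61e-05) and the early stage did not (adjusted p = 0.00812). Without the 10 nM line both stages passed in edgeR, with adjusted p = 0.00263 and 0.00285. TFRC and TFR2 thus had opposite signs, and their ratio per kilobase was 1.54 ± 0.356 in the controls (SD, n = 2), 5.42 ± 1.37 in the early stage (n = 3) and 5.59 ± 0.157 in the late stage (n = 2).

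SLC11A2, on chromosome 12 (51373184-51422349, minus strand), encodes the divalent metal transporter that moves iron out of the endosome. Its CPM were 91.3 and 82.9 in the controls, 95.3, 86.3 and 85.7 in the early stage and 91.5 and 71.1 in the late stage. The groups overlapped in each comparison. The 95% interval of the log2 fold change was -0.29 to 0.33 in the early stage and -0.46 to 0.22 in the late stage.

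**Figure D2:**
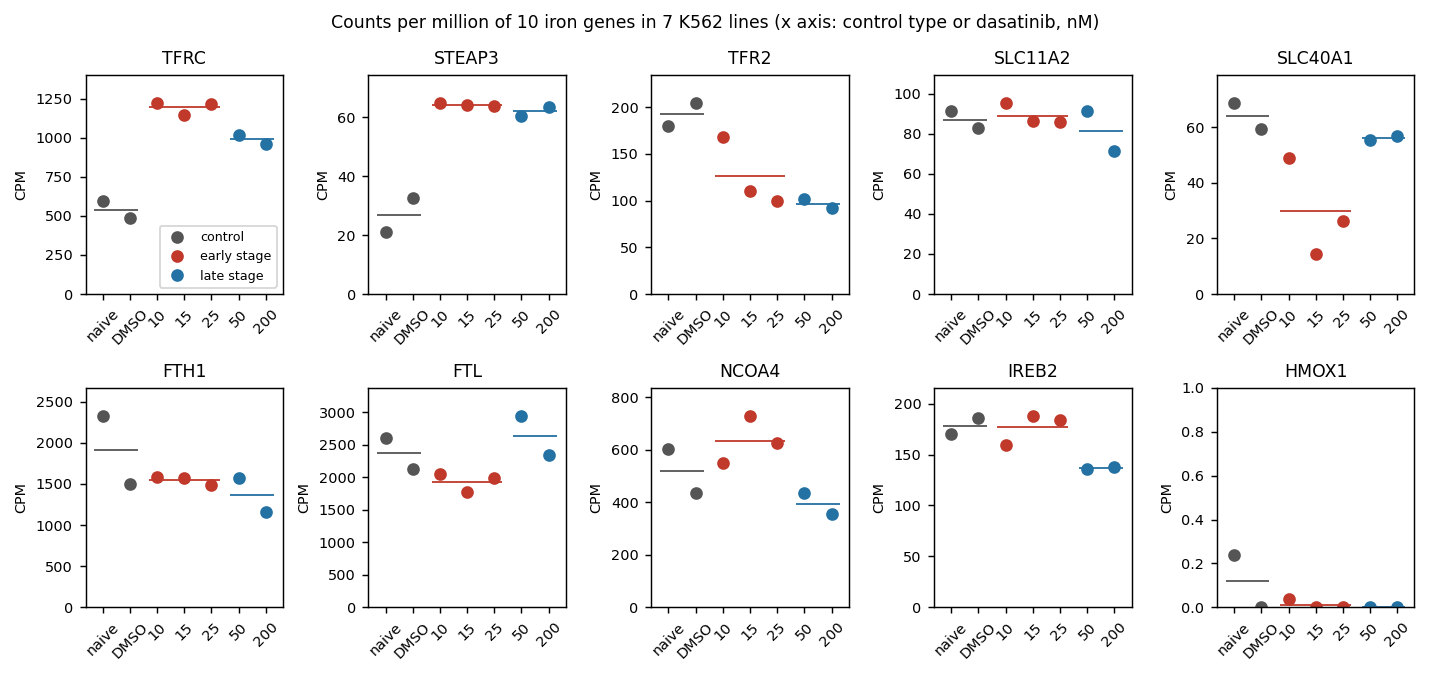
CPM (linear axes from 0, a scale for each gene) of the 10 iron genes in each K562 line, with control lines grey, early stage red and late stage blue, and a horizontal line at each group mean. TFRC and STEAP3 are higher in all 5 DasR lines, TFR2 is lower in all 5, and HMOX1 stays under 0.3 CPM in every line.

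FTH1, the ferritin heavy chain, which carries the ferroxidase activity that lets iron into the shell, lies on chromosome 11 (61727190-61735106, minus strand). The 2 controls differed from each other: 2320 CPM in the drug naive line and 1496 CPM in the DMSO line. The early stage lines had 1582, 1571 and 1488 CPM, and the late stage lines 1566 and 1161 CPM. These overlapped the controls in both comparisons, and the DMSO line alone lay among the early stage lines. The log2 fold change was -0.32 (SE 0.21, adjusted p = 0.233) in the early stage against -0.51 (SE 0.23, adjusted p = 0.123) in the late stage. FTH1 has 25 named pseudogenes in the annotation, so reads could be split or shared among copies. BEST1, on the opposite strand, shares 880 of the 1203 exon bases of FTH1, so the counts of both are uncertain. BEST1 had 11.9 and 10.7 CPM in the controls and between 0.791 and 1.65 CPM in the DasR lines, a small amount beside FTH1.

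FTL, the ferritin light chain, on chromosome 19 (49468566-49470136, plus strand), had 2608 and 2132 CPM in the controls. The early stage lines, at 2052, 1771 and 1982 CPM, all lay below both, and the late stage lines, at 2937 and 2338 CPM, overlapped the controls. Neither difference from control passed the threshold (log2 fold change -0.31, adjusted p = 0.114, and 0.13, adjusted p = 0.55). Late stage lines were above all early stage lines by 0.44 on the log2 scale (95% interval 0.11 to 0.78, adjusted p = 0.0825). The ratio of FTL to FTH1 per kilobase was 1.59 and 2.01 in the controls, 1.83, 1.59 and 1.88 in the early stage, and 2.65 and 2.84 in the late stage. Both late stage lines were thus above the other 5. FTL has 16 named pseudogenes, with the same limit as FTH1.

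NCOA4, on chromosome 10 (51565199-51590734, plus strand), encodes the receptor that takes ferritin to autophagosomes for degradation. It had 602 and 436.4 CPM in the controls, 552, 727 and 626 CPM among early stage lines, and 435.9 and 355 CPM in the late stage. Late stage lines lay below all others, by less than 1 CPM between the 50 nM and the DMSO line, and with TMM scaling the 50 nM line was above the DMSO line. Against the early stage the log2 difference was -0.69 (95% interval -1.13 to -0.24, adjusted p = 0.0556, and 0.00137 by DESeq2). From control it was 0.27 (adjusted p = 0.27) for the early stage and -0.42 (adjusted p = 0.151) for the late stage. NCOA4 has 4 named pseudogenes, with the same limit as FTH1.

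SLC40A1, on chromosome 2 (190425316-190448484, minus strand), encodes ferroportin, the exporter of cellular iron. The controls had 68.7 and 59.5 CPM, and the late stage lines 55.6 and 57.0 CPM. Within the early stage the level ran from 48.9 CPM at 10 nM to 14.3 CPM at 15 nM and 26.4 CPM at 25 nM. Every early stage line was below the controls and the late stage lines. The 15 nM line had 0.292 of the CPM of the 10 nM line, a spread that left an SE of 0.42 around the early stage log2 fold change of -1.12 (adjusted p = 0.0652). In the late stage the change was -0.21 (95% interval -1.31 to 0.89).

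HMOX1, on chromosome 22 (35776354-35790207, plus strand), encodes heme oxygenase 1, which opens heme and frees its iron. Only 5 reads were counted in the drug naive line, 1 read in the 10 nM line and 0 in the other 5 lines. A count of 0 allows up to 0.150 CPM in the shallowest of these libraries (3 counts, a 1-sided limit for counting error only; the 2-sided exact Poisson 95% interval of 0 counts ends at 0.184 CPM). The 5 counts of the drug naive line correspond to 0.238 CPM, with an exact Poisson 95% interval of 0.0773 to 0.555 CPM. No difference between groups could be measured at this depth. HMOX2, the constitutive heme oxygenase, was among the tested export genes.

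IREB2, on chromosome 15 (78729773-78793795, plus strand), encodes iron regulatory protein 2, which binds iron-responsive elements when iron is low. It had 170 and 186 CPM in the controls, 159, 187 and 184 CPM among early stage lines, and 136 and 138 CPM in the late stage. Both late stage lines were below the other 5. Their log2 difference was -0.40 from control (SE 0.10, adjusted p = 0.0235) and -0.37 from the early stage (SE 0.09, adjusted p = 0.0443), both short of the 0.005 threshold in edgeR. By DESeq2 the difference from control passed (adjusted p = 0.00373). For the early stage the 95% interval was -0.24 to 0.19.

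**Figure D3:**
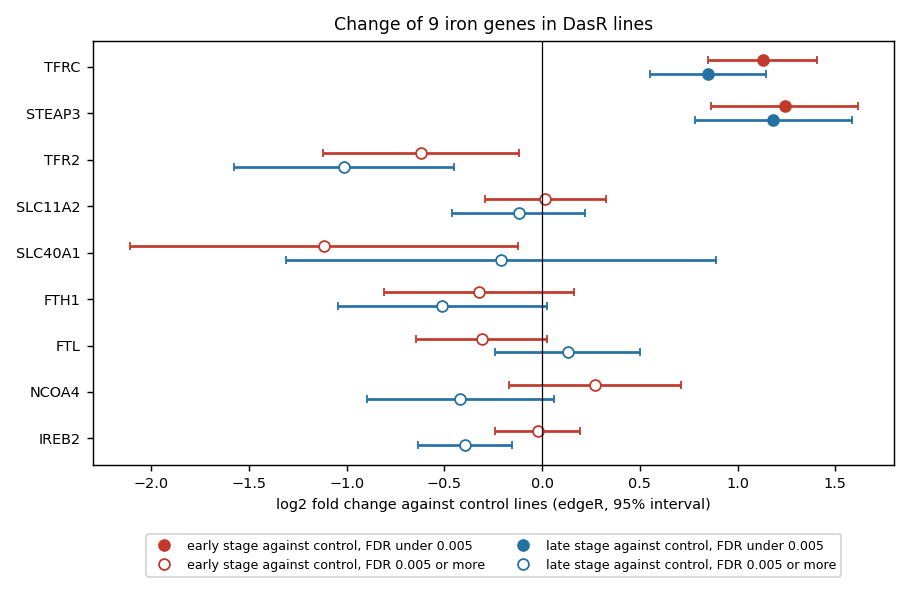
Log2 fold change against the control lines (x axis) of the 9 tested iron genes, with edgeR 95% intervals, for early stage (red) and late stage (blue). Filled points passed an adjusted p of 0.005: TFRC and STEAP3, higher in both stages. Intervals of SLC40A1 are the widest.

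Counted together, 2 of the 9 tested members passed in the early stage comparison, where 18.0% of all tested genes did, and both were higher, where 7.92% of all genes were. In the late stage the same 2 members passed, against 7.98% of all tested genes and 3.42% that passed as higher. With an adjusted p of 0.05 as the threshold, 3 of 9 members passed in the early stage (46.5% of all genes) and 4 of 9 in the late stage (33.9%). Between the stages 0 members passed 0.005, as did 0 (0.00%) of the 10452 genes by edgeR, although 3450 genes had an unadjusted p under 0.05 and DESeq2 called 1135. At 0.05, 1 member, IREB2, passed between the stages (12.7% of all genes). Lines of the 2 groups did not overlap for 5 of 9 members in early stage against control (69.8% of all genes), for 6 in late stage against control (67.7%; 5 with TMM scaling, where NCOA4 overlapped) and for 6 in late against early stage (53.3%). The median log2 fold change of the 9 members was -0.02 in the early stage against -0.21 in the late stage, beside 0.003 and -0.004 for all tested genes. The 2 of 9 members called in the early stage are close to the share of all genes, and the larger share in the late stage rests on the same 2 genes, TFRC and STEAP3. The other 7 tested members did not pass in either stage by edgeR.

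The other genes of iron handling were taken from 5 lists of 80 genes, of which 62 were tested. In the early stage 5 rose and 7 fell, and in the late stage 2 rose and 2 fell, where 18.0% and 7.98% of all tested genes passed. The 12 and 4 calls among 62 genes are near those shares, which are also the background for the counts of each list below. Their median log2 fold changes were 0.05 and -0.04. The list genes named below that passed depend on single libraries: each of 16 early stage calls and 5 late stage calls, in these lists and those for heme synthesis and NRF2, was lost when at least 1 library was left out (adjusted p up to 0.0372). The marker genes were not in that count.

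Among 10 tested import genes of 17 listed, 1 rose and 3 fell in the early stage, and 0 passed in the late stage. SLC39A8, a zinc transporter family member that also carries iron and manganese, had 50.9 and 72.4 CPM in the controls, 167, 200.3 and 152 CPM among early stage lines, and 104 and 65.1 CPM in the late stage. It rose by 1.48 on the log2 scale in the early stage (SE 0.24, adjusted p = 0.0031). SLC39A14, a related carrier of iron that is not bound to transferrin, went the other way: 116 and 136 CPM in the controls, 55.7, 55.6 and 69.6 CPM among early stage lines, and 96.3 and 147 CPM in the late stage. Its early stage log2 fold change was -1.08 (SE 0.18, adjusted p = 0.00362), and its late stage value of -0.07 was within the spread of the lines.

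PICALM, an adaptor of clathrin-coated pits, fell by 0.72 on the log2 scale (adjusted p = 0.00371), from 849 ± 40.3 CPM in the controls to 521 ± 74.6 CPM (SD, n = 2 and 3). EXOC6, an exocyst subunit needed for transferrin cycling in erythroid cells, fell by 0.75 (adjusted p = 0.00143), from 69.5 ± 6.39 to 41.9 ± 1.49 CPM. In the late stage their values were -0.61 (adjusted p = 0.0153) and -0.32 (adjusted p = 0.0582). SNX3 and VPS35, sorting genes of the same list that act in receptor recycling, did not pass in the early stage (log2 fold changes 0.08, adjusted p = 0.511, and -0.29, adjusted p = 0.0159).

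TF, which encodes transferrin itself and is named here after its values were seen, had 11.1 and 14.8 CPM in the controls. It had 20.6, 37.7 and 21.2 CPM in the early stage lines and 4.47 and 2.22 CPM in the late stage lines. The early lines were above the controls and the late lines below them, by 1.02 (adjusted p = 0.0515) and -1.97 (adjusted p = 0.0123) on the log2 scale. Of the genes of all other lists, markers included, those with a match to the hairpin letters were TF and ITGB3 in the 3′ UTR and ALAS2 in the 5′ UTR.

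**Figure D4:**
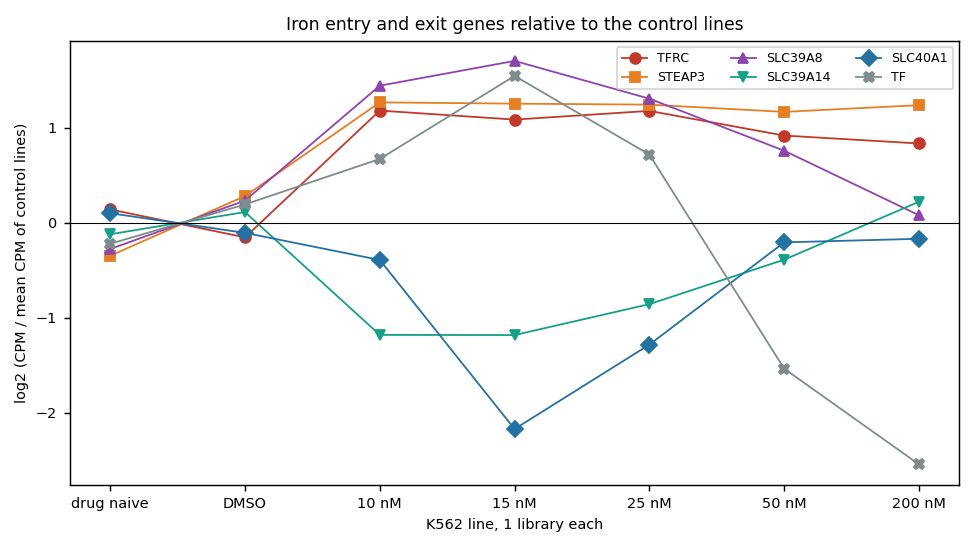
Log2 of CPM over the mean CPM of the control lines (y axis) for 6 genes of iron entry and exit in the 7 K562 lines (x axis, 1 library each, joined by lines to guide the eye). TFRC and STEAP3 are above the controls from 10 to 200 nM, with TFRC lower in both late stage lines than in the early stage, SLC39A8, SLC39A14 and SLC40A1 leave the control level in the early stage and lie nearer to it in the late stage, and TF ends below it.

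In the list of 22 sensing and regulation genes, 17 were tested, with 3 higher and 1 lower in the early stage and 1 higher in the late stage. CUL1, the scaffold of the ubiquitin ligase in which FBXL5 targets IREB2, rose by 0.69 in the early stage (adjusted p = 0.0017). FBXL5 itself had a log2 fold change of -0.43 (adjusted p = 0.0132). NFE2L2, which encodes NRF2, an activator of the ferritin and HMOX1 genes, fell by 0.86 (SE 0.09, adjusted p = 0.000693), from 171 and 193 CPM in the controls to 101, 95.5 and 107 CPM, with 117 and 132 CPM in the late stage. MAFK, a small MAF partner of NRF2 and BACH1, rose by 0.96 (adjusted p = 0.00142). CISD1, an iron-sulfur protein of the outer mitochondrial membrane, rose in both stages, by 0.90 (adjusted p = 0.0017) and 0.89 (adjusted p = 0.0038). ACO1, iron regulatory protein 1, ranged from 50.2 to 67.5 CPM over the 7 lines, with log2 fold changes of 0.16 (adjusted p = 0.292) and 0.23 (adjusted p = 0.182).

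Of 22 genes for mitochondrial iron and iron-sulfur clusters, 20 were tested. In each stage 1 rose and 2 fell. GLRX5, a glutaredoxin of cluster assembly, rose from 39.1 and 41.1 CPM in the controls to 65.0, 55.5 and 59.4 CPM among early stage lines (log2 fold change 0.57, adjusted p = 0.00384) and to 79.8 and 84.9 CPM in the late stage (1.02, adjusted p = 0.00128). NFU1, a late-acting cluster scaffold, fell in both stages, by 1.05 (adjusted p = 0.00121) and 0.92 (adjusted p = 0.00469). HSPA9, the mitochondrial chaperone of cluster transfer, fell by 0.62 in the early stage (adjusted p = 0.00202), and ABCB10, which stabilises the iron importer SLC25A37, fell by 0.70 in the late stage (adjusted p = 0.00457). SLC25A37, mitoferrin 1, singled out after its values were seen because it feeds heme synthesis, had 268 and 134 CPM in the control lines against 514, 433 and 348 CPM in the early stage, with a log2 fold change of 1.08 that did not pass (adjusted p = 0.0759). Its late stage lines, at 293.5 and 124 CPM, overlapped the controls (log2 fold change 0.03, adjusted p = 0.9655).

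In the list of 11 export genes 8 were tested, and 1 fell in the early stage and 0 passed in the late stage. That gene was SLC48A1, which carries heme from the lysosome to the cytosol: 83.6 and 82.5 CPM in the controls, 38.5, 26.6 and 30.6 CPM among early stage lines (log2 fold change -1.40, SE 0.16, adjusted p = 0.00081), and 46.0 and 41.5 CPM in the late stage (-0.95, adjusted p = 0.00766). Of 8 genes for ferritin turnover by autophagy, 7 were tested and 0 passed in either stage.

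**Figure D5:**
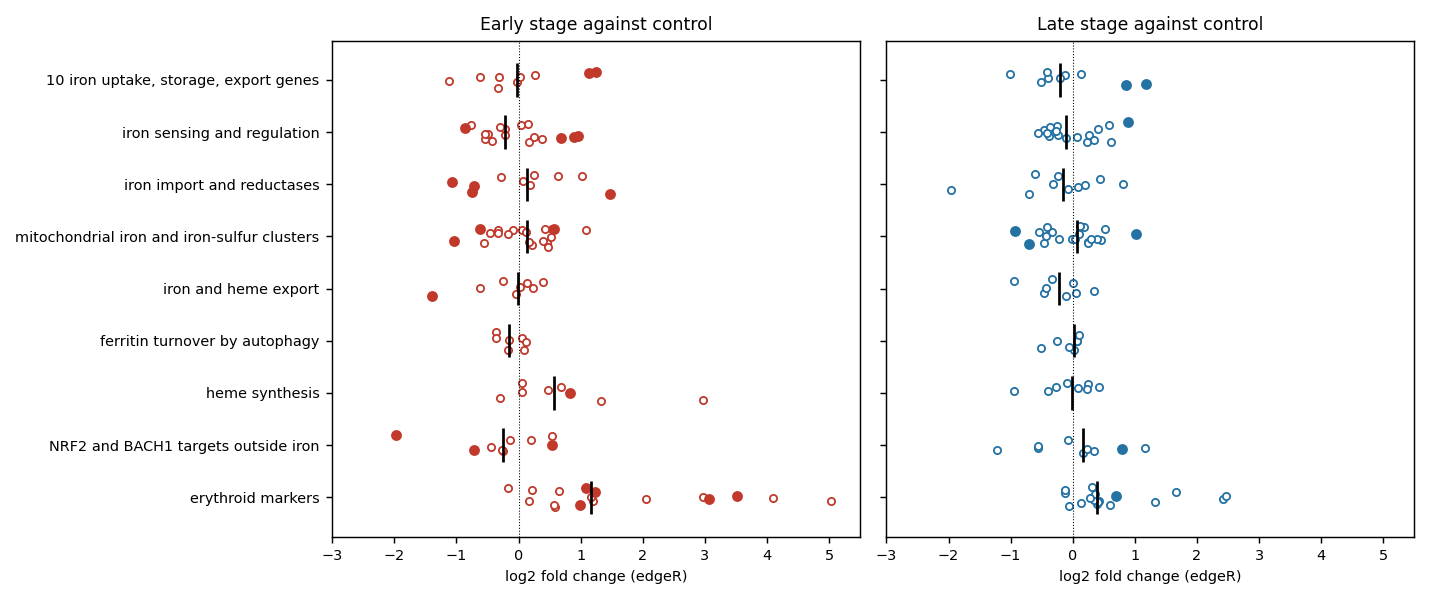
Log2 fold change against control (x axis) of each tested gene of 9 lists, 1 point per gene, for early stage (left, red) and late stage (right, blue), with points shifted up or down only to part them. Filled points passed an adjusted p of 0.005 and a black bar marks the median, which in the early stage lies between -0.21 and 0.14 for the 10 genes and the other 5 iron lists and at 1.17 for the erythroid markers.

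K562 carries the cell type label of an erythroblast, and 17 of 18 erythroid markers were among the tested genes. HBG2, a fetal globin gene with the highest mean CPM of them over the 7 lines, had 1208 and 915 CPM in the controls, 3038, 2283 and 1916 CPM among early stage lines, and 1527 and 1205 CPM in the late stage, and did not pass (early log2 fold change 1.16, adjusted p = 0.00658). The summed level of the 18 markers was 4205 and 3937 CPM in the controls, 12470, 14030 and 10730 CPM at 10, 15 and 25 nM, and 6876 and 4794 CPM at 50 and 200 nM. The sum was thus highest in the 3 early stage lines, as TFRC was. At 200 nM the sum was nearer to the controls than to the early stage, while TFRC was not. Globin genes had the highest mean CPM of the 18 over the 7 lines and weigh most in this sum. Among them, HBZ had 59.5 and 74.3 CPM in the controls and 1865, 2856 and 1917 CPM among early stage lines. In the late stage HBZ had 659 and 60.0 CPM. Of the 17, 5 rose and 0 fell in the early stage, and 1 rose in the late stage. The 5 included the globin genes HBG1, HBA1 and HBA2. Of the 17, 1 had a negative early stage log2 fold change: GATA1, an erythroid transcription factor (-0.18, adjusted p = 0.283). At an adjusted p of 0.05, 13 of the 17 were higher in the early stage, where 22.6% of all tested genes were. In the late stage 1 was higher at 0.05, where 16.2% of all tested genes were. The smallest p-values were those of ANK1, which encodes ankyrin of the red cell skeleton, and EPOR, the erythropoietin receptor, at 1.08 (adjusted p = 0.000262) and 0.99 (adjusted p = 0.00229) on the log2 scale in the early stage, and ANK1 was the gene that also rose in the late stage, by 0.70 (adjusted p = 0.00253). Of 8 heme synthesis genes, all tested, 1 rose in the early stage and 0 passed in the late stage. FECH, which inserts iron into the heme ring, rose by 0.82 (adjusted p = 0.00362). ALAS2, the erythroid first enzyme of the path, is counted in both lists and had 58.9 and 40.9 CPM in the controls, 376.5, 514 and 300.2 CPM among early stage lines, and 124 and 12.2 CPM in the late stage (early log2 fold change 2.97, SE 0.86, adjusted p = 0.0255). The part of the erythroid program in the TFRC and STEAP3 values was not tested.

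Markers of other blood cells were mostly at low counts. Of 11 macrophage markers 3 were tested, with CD68 changed by -1.65 on the log2 scale in the early stage (adjusted p = 0.000845), and MARCO, C1QA and C1QB had 3 counts or fewer in every line. LYZ, with the highest mean CPM over the 7 lines though below CD68 in both controls, had 54.7 and 40.0 CPM in the control lines against 101, 24.6 and 42.1 CPM in the early stage. The macrophage sum was 158 and 132 CPM in the controls, 151, 46.5 and 76.4 CPM among early stage lines, and 165 and 174 CPM in the late stage. Of 10 megakaryocyte markers 2 were tested, and ITGA2B, with the higher mean CPM over the 7 lines, fell by 2.44 in the early stage (adjusted p = 0.00234). ITGA2B had 13.4, 5.96 and 13.2 CPM there, compared with 63.9 and 52.5 CPM in the control lines and with 56.8 and 99.2 CPM in the late stage. The other, VWF, which encodes von Willebrand factor, had the opposite sign without passing: 0.666 and 0.291 CPM in the controls, 36.97, 3.88 and 7.93 CPM among early stage lines, and 13.8 and 6.67 CPM in the late stage (log2 fold changes 5.08, adjusted p = 0.0131, and 4.41, adjusted p = 0.0319). VWF had only 14 and 7 counts in the controls and reached 10 CPM only in the 10 and 50 nM lines. A gene so low in the controls could enter the test only by being higher in DasR lines, so its sign carries no weight. GP1BB, GP9, PF4 and SELP had 3 counts or fewer in every line. The megakaryocyte sum was 80.5 and 64.3 CPM in the controls, 60.2, 20.7 and 30.8 CPM among early stage lines and 82.9 and 113 CPM in the late stage. SLC40A1 was lowest in the 15 nM line, as were these sums. Every library came from a K562 line, so the sums describe these genes in K562 cells. Their relation to SLC40A1 was not tested. Of 9 lymphocyte markers 2 were tested and 0 passed, CD8A and MS4A1 had 3 counts or fewer in every line, and PTPRC had the highest mean CPM over the 7 lines, at 174 and 195 CPM in the control lines against 11.2, 0.898 and 103 CPM in the early stage. The sum of the lymphocyte list was 200.0 and 215 CPM in the controls, 20.2, 9.27 and 116 CPM among early stage lines, and 332 and 367 CPM in the late stage. PTPRC made up most of it in the controls and in the late stage, where PTPRC had 305 and 333 CPM. Of the 9 genes, 4 were under 1 CPM in every line, so the sum is not a measure of lymphocytes.

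Of 10 genes that answer to NRF2 and BACH1 outside iron handling, 9 were tested. In the early stage 1 rose and 2 fell, and in the late stage 1 rose and 0 fell. SLC7A11, the cystine importer, fell by 1.98 in the early stage (adjusted p = 0.00202), and NQO1, a quinone reductase, fell by 0.72 (adjusted p = 0.0049). PRDX1, a peroxidase, rose by 0.54 (adjusted p = 0.00482). SRXN1, which repairs oxidised peroxiredoxins, rose by 0.79 in the late stage (adjusted p = 0.00321).

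Over the 7 lines, the genes whose log2 CPM followed TFRC most closely of the 10452 tested were FZD3 (Pearson r = 0.993), SLC12A7 (0.991) and ATRN (0.99), and 179 genes had r of 0.95 or more. For FTH1 they were TRIP11 (0.97), RNPC3 (0.969) and GCLM (0.965), with 11 genes at 0.95 or more. These values describe 7 libraries that share a scaling and fall into 3 groups.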

How the data were processed

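The authors sequenced RNA as paired reads (ribosome-depleted by the protocol, polyA RNA by the molecule label), aligned it to hg19 with STAR and counted reads per gene with featureCounts; the deposited counts are raw. They also deposited 2 tables of their own comparisons. The gene lengths behind CPM per kilobase came from these tables. Their result columns (fold changes and mean levels on the log2 scale, p-values, FDR) were not used. The CPM values here are counts over library totals. No per-sample column was left unused.

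Genes reaching 10 CPM in 2 or more libraries were scaled by TMM and tested in edgeR 4.0.16 (glmQLFit, glmQLFTest; R 4.3.3), all 7 libraries in 1 fit with a coefficient per group and Benjamini-Hochberg adjustment, at the study's threshold of 0.005. Alternatives were DESeq2 1.42.0, median-ratio and library-total scaling, 1 CPM or no filter, only the 2 groups compared, a threshold of 0.05 and leaving out each library. The functions were tested on simulated data. Floors and Poisson intervals cover counting error only; edgeR intervals include the spread between lines.

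Members and lists were chosen with earlier results of these data known. Named are all members, list genes past the threshold (at most 2 per direction where more than 4 passed), the marker of each list with the highest mean CPM over all lines and the 3 genes closest to TFRC and FTH1. Other genes were chosen after their values were seen, as is said beside them. CD68, VWF, SNX3, VPS35, ACO1, FBXL5, ALAS2, HMOX2, HBG1, HBA1, HBA2, HBZ, GATA1 and GYPC are such genes too. Some genes of these lists are not reported here.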

Additional observations from a re-analysis of the deposited data

Results flagged for a closer look

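Of 79 tested genes in the iron, heme synthesis and NRF2 lists outside the members, 6 (7.59%) had early stage lines all on one side of the controls and late stage lines all on the other, beside 419 (4.01%) of all 10452 tested genes, on the TMM-scaled CPM used for the test. None of the 9 tested members did, and 3 of 23 other tested marker genes did: GATA1, GYPC and PTPRC. TF (late against early stage log2 fold change -2.99, adjusted p = 0.0167), IBA57, an iron-sulfur cluster protein (-0.95, adjusted p = 0.0167), and HERC2, a ubiquitin ligase linked to NCOA4 (-0.63, adjusted p = 0.0323), were higher than control in the early stage and lower in the late stage. The erythroid marker GYPC did the same (-0.28, adjusted p = 0.102). NQO1 (0.89, adjusted p = 0.0167), the autophagy receptor TAX1BP1 (0.46, adjusted p = 0.0228) and the mitochondrial iron carrier SLC25A28 (0.27, adjusted p = 0.204) went the other way. So did the erythroid marker GATA1 (0.49, adjusted p = 0.0447) and PTPRC, from the lymphocyte list (3.07, adjusted p = 0.145). The adjusted p-values are from edgeR's test of the late against the early stage, and all of them are above 0.005.

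Some genes below the level needed for testing were higher in the lines of 1 or both stages than in the controls. FLVCR2, a heme transporter relative, had 0.0952 and 0.0832 CPM in the controls, a mean of 1.8 CPM in the early stage and of 1.26 CPM in the late stage. The metalloreductase STEAP1 had 2.33 and 2.37 CPM in the controls and a mean of 5.14 CPM in the late stage, with 1.87, 1.22 and 2.44 CPM in the early stage. CP, the ferroxidase ceruloplasmin, had 1 and 3 counts in the controls and 19, 4 and 7 counts at 10, 15 and 25 nM, a mean of 0.392 CPM in the early stage that rests mostly on the 10 nM line (0.683 CPM, beside 0.144 and 0.349 CPM).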

How the results depend on the processing

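Across the alternatives the TFRC and STEAP3 log2 fold changes against control kept their sign; TFRC in the early stage passed in every one. Passing genes in early stage against control numbered 1881, and 3548 with DESeq2, 4865 at 0.05, and 208 to 2066 when 1 library was left out, the lowest without the drug naive line. For late stage against control 834 became 2503 with DESeq2, 1287 with no filter, 257 with only the 2 groups compared, 3542 at 0.05, and 33 to 596 with 1 library left out. Between stages 0 became 1135 with DESeq2, 295 with no filter, 1328 at 0.05 and 0 to 198 with 1 library left out, the highest without the 50 nM line. Passing members went from 2 to between 1 and 3 in the early stage and between 0 and 1 in the late stage with 1 library left out. In the late stage they were 4 with DESeq2 or at 0.05 and 0 with only the 2 groups compared. Between stages 1 member passed with DESeq2 (NCOA4) and 1 at 0.05 (IREB2). Leaving out 1 library turned the sign of small log2 fold changes, whose ranges were -0.63 to 0.063 (FTH1, early stage), -0.43 to 0.022 (FTH1, between stages), -0.054 to 0.32 (FTL, late stage), -0.079 to 0.12 (SLC11A2, early stage), -0.32 to 0.058 (SLC11A2, late stage), -0.34 to 0.042 (SLC11A2, between stages), -0.064 to 0.043 (IREB2, early stage), -0.40 to 0.19 (SLC39A14, late stage), -0.012 to 0.098 (ABCB10, early stage), -0.15 to 0.28 (FECH, late stage) and -0.13 to 0.10 (CISD1, between stages). CISD1 between stages also turned with the 1 CPM filter (0.022) or none (0.029). The cause was not tested. Each line was sequenced once, so the spread of a repeated library is unknown. No paired analysis was possible because the lines, 1 library each, came from a single rise in dose and form no pairs.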
